A study of Mus musculus with 2 samples.

Results

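Chromatin modifiers are the enzymes and complexes that add, remove or read marks on histones and DNA, or that move nucleosomes. The set described here holds 55 genes picked by symbol for their role, with earlier results of these data known, from the 24081 gene symbols of the count table. It was divided by role into 10 deacetylases, 9 Polycomb genes, 9 heterochromatin genes, 7 SWI/SNF genes, 6 NuRD genes, 7 DNA methylation genes, 4 acetyltransferases and 3 demethylases. All 55 were present in the table, and all 55 passed the floor of a mean of 20 reads over both libraries, as 10899 genes did in all.

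The RNA came from Treg cells (regulatory T cells), a CD4+ lineage that depends on the transcription factor Foxp3 and restrains immune responses. The cells were sorted as CD4+ YFP+ cells from the spleen and lymph nodes of C57BL/6 mice aged 5 weeks. The study asks whether these cells need SUMOylation, the attachment of the small protein SUMO to other proteins. All mice carried the Cre recombinase on 1 of their Foxp3 alleles (Foxp3cre/wt), so that Cre acts in Foxp3-expressing cells, and the mice still hold Treg cells without Cre, which the YFP gate leaves out. The library titled WT came from mice with 1 floxed and 1 wild-type allele of the targeted SUMO pathway gene, and the library titled KO from mice with both alleles floxed. Both samples are labelled wild type in the genotype field, so every direction below rests on the titles and the design text. Each group is 1 library made from the pooled cells of 5 to 10 mice, so no difference could be set against the spread between replicates, and no p-values are given.

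Reads assigned to genes numbered 11662867 in WT and 23789264 in KO. After scaling, equal expression corresponds to 1.93 KO reads for each WT read. All 8 Treg and T cell markers were read in both: Foxp3 had 8540 reads in WT and 30579 in KO, Cd4 had 23224 and 54375, and Cd3e had 8800 and 19294. The markers did not move together. Foxp3 and Lrrc32 were 1.85-fold and 2.36-fold higher in the KO library, Ctla4 and Ikzf2 were 1.61-fold and 1.59-fold lower, and the other 4 were above 0 and under 1.5-fold. Markers of other cells were also read. The 8 B cell markers summed to 135 and 108 CPM (counts scaled to library size, WT and KO), the 10 myeloid markers to 484 and 445, the 8 CD8 T and NK cell markers to 53.0 and 54.9, and the 8 erythroid and platelet markers to 15.3 and 5.96. Of the erythroid genes Hbb-b1 and Hba-a1 were at 0 in both libraries, while Alas2 had 115 and 93 reads and Slc4a1 50 and 30. Hbb-b1 had no match in the gene annotation used here, and reads that align to several places were not counted. These zeros therefore do not show that globin RNA was absent. Of the 4 thymocyte markers Rag2 and Ptcra were at 0 in both, with a list sum of 1.34 and 1.51. The part of these other cells in the results below was not tested. In such bulk samples a smaller share of cells of a type and less RNA per cell cannot be told apart.

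Histone deacetylases and the Polycomb repressive complexes are known for silencing, histone acetyltransferases and SWI/SNF remodellers for opening chromatin. DNA methyltransferases write cytosine methylation and the Tet enzymes oxidise it. In Treg cells, demethylation of conserved regions of the Foxp3 locus is known to keep Foxp3 expression stable, and several chromatin regulators, such as Ezh2 and Crebbp, are known to matter for Treg function.

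Genes for the acetyltransferases CBP and p300, Tet1, Tet3 and the SWI/SNF subunits Arid1a and Arid1b had at least 1.5-fold more RNA in the KO library. Of these, only Crebbp (the gene for CBP) and Tet1 stayed at 1.5-fold with a trend on GC content and length removed. No gene of the 55 was lower by the rule used, though the log2 ratio was below 0 for 16. Calls needed a ratio of at least 1.5-fold in either direction, on the log2 scale of KO over WT with scaled counts and a pseudocount of 1. By this rule 10 of the 55 genes (18.2%) were higher and none was lower. Among all expressed genes 7.43% were higher and 5.51% were lower, and among the 9051 genes with a mean of at least 100 reads, a floor that all 55 also pass, 5.62% and 3.41%. At 2-fold none of the 55 was called, against 1.59% higher and 2.08% lower among all expressed genes. The median log2 ratio of the 55 genes was 0.16, with values from -0.57 for Hdac9 to 0.91 for Crebbp, against a median of 0.01 over all expressed genes. The log2 ratio was above 0 for 39 of the 55 (70.9%), and for 51.4% of expressed genes. The exact 95% interval of the fold, which covers counting error and no spread between mice, lay wholly above 1 for 30 of the 55 genes and wholly below 1 for 11. Over all expressed genes these shares were 29.1% and 25.6%. The 55 genes had a median of 1279 WT reads and the expressed genes one of 374, and more reads make an interval narrower. The 10 higher genes were Crebbp, Kdm6b, Arid1a, Tet1, Tet3, Cbx2, Hdac5, Ep300, Mta1 and Arid1b. Arid1b, Mta1 and Ep300 lay just above the threshold and Chd3 just under it, so the count of 10 depends on where it is set.

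The ratio moves with the GC content of the transcript in these libraries, and chromatin genes span a wide range of it, from 39.5% to 62.9%. Across all expressed genes the Spearman correlation of ratio and GC content was 0.43, and across the 55 genes 0.55 (genes are not independent, and all points share the same pair of libraries). In the 19 members with the highest GC content 5 were called higher, where 16.3% of expressed genes in the same GC range were. In the middle 18 it was 4, against 5.01% of expressed genes, and in the lowest 18 it was 1, against 2.81%. When a trend on GC content and length, fitted as a smooth curve over all genes, was removed, 2 of the 55 genes (3.64%) remained higher, Crebbp and Tet1, against 4.30% of all expressed genes. None was lower, against 5.79%. The share of higher genes was then near that of other genes. The median log2 ratio of the 55 was 0.08, and 35 of them (63.6%) were above 0, against 47.8% of expressed genes. With scaling to total counts 4 genes were higher, Crebbp, Kdm6b, Arid1a and Tet1, and Hdac9 was lower. The share of higher genes among those called was then 80%, compared with 100% in the main scaling. Over all expressed genes this share was 57.45% as scaled, 45.1% with total counts and 42.65% with the GC trend removed.

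**Figure D1:**
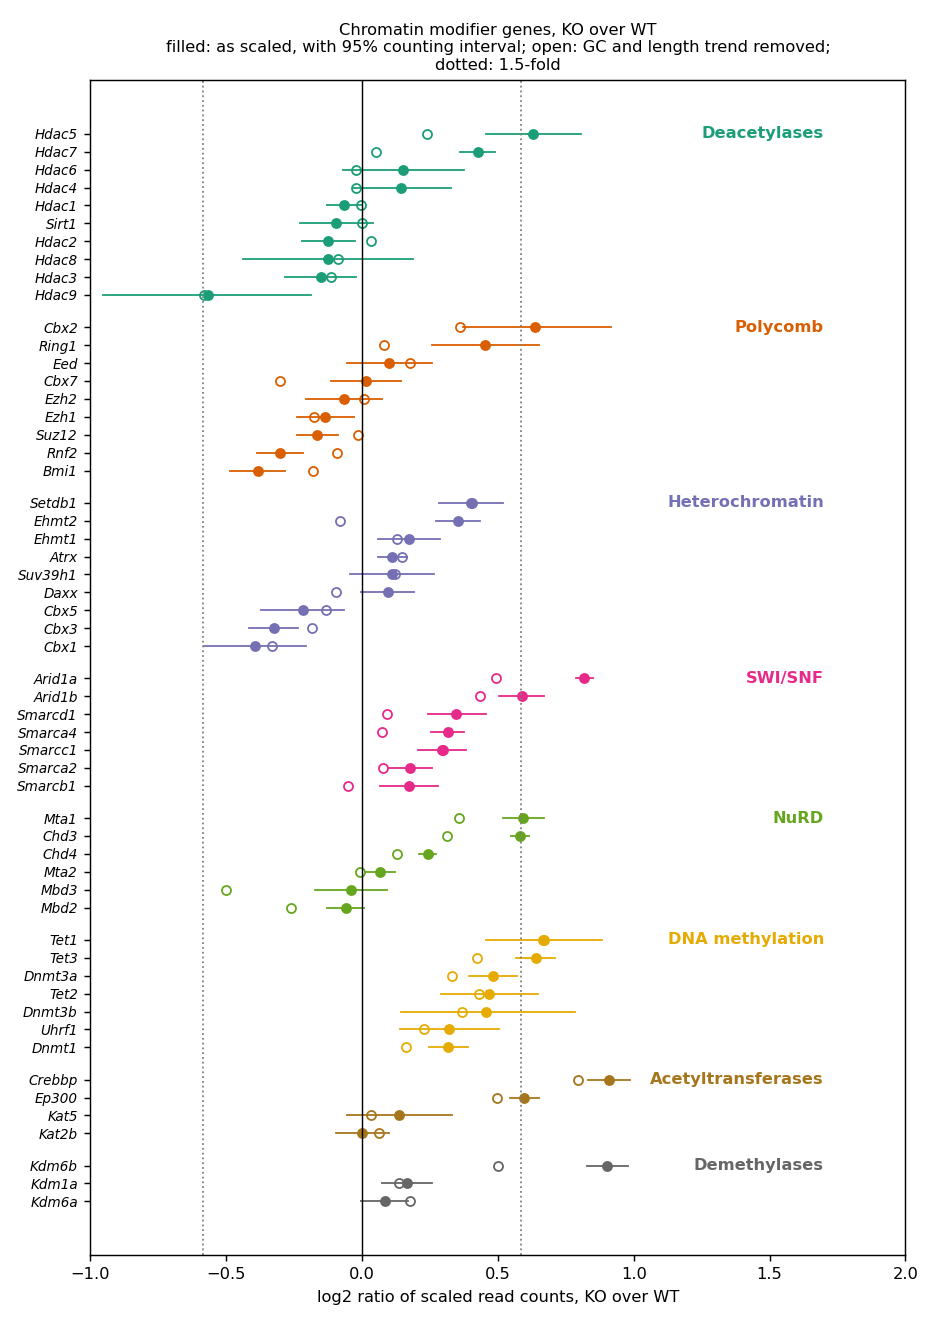
The log2 ratio of KO over WT (horizontal axis) is shown for each of the 55 genes, grouped by role, with filled points as scaled, bars for the exact 95% counting interval, and open points after removal of the trend on GC content and length. Dotted lines mark 1.5-fold. The 7 DNA methylation genes stay right of 0 in both versions, and the HP1 genes Cbx1, Cbx3 and Cbx5 stay left of it.

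**Figure D2:**
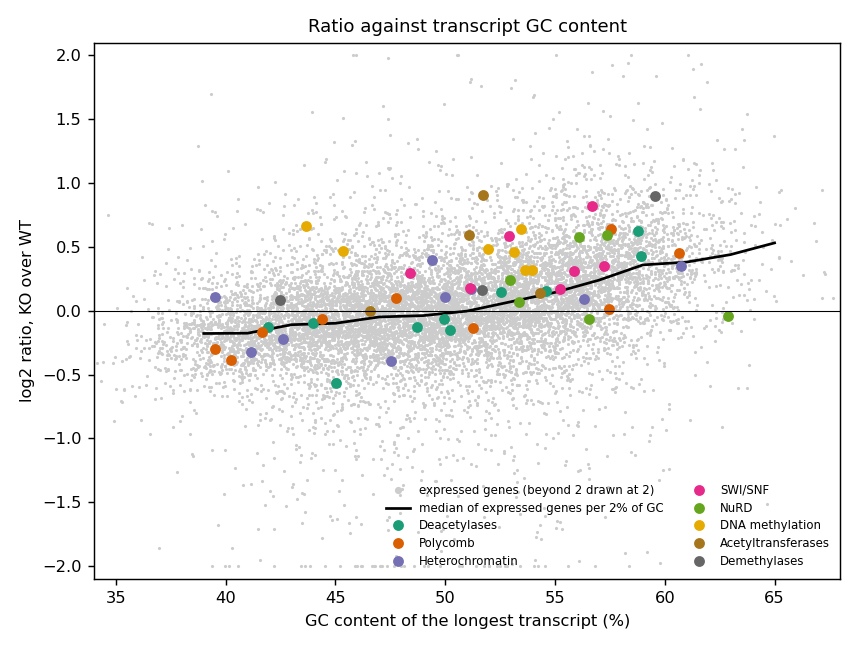
The log2 ratio of KO over WT (vertical axis) is plotted against the GC content of the longest transcript in percent (horizontal axis), with expressed genes in grey, their median per 2% of GC content as a line, and the 55 genes in colour by role. Tet1, Tet2 and Crebbp lie far above the line at their GC content, and Mbd3 lies below it at the GC-rich end.

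The sequence before the transcription start shows how these genes also differ in base composition at their promoters. RefSeq windows of the GRCm38.p6 build matched 49 of the 55 genes (all but Hdac1, Hdac3, Cbx2, Kdm6b, Chd3 and Mbd2), with the most upstream start taken for each. The 250 bases before that start are shown for 6 members, the 3 at the top and the 3 at the bottom of the ratios among windows that meet no annotated exon. Capitals mark CG dinucleotides, the sites at which DNA methyltransferases act.
Arid1a: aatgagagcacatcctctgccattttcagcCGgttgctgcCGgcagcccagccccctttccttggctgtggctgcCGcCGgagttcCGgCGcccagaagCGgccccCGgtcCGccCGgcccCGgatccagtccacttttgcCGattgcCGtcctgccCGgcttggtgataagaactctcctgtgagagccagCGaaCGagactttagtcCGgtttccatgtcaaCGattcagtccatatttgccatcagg
Hdac5: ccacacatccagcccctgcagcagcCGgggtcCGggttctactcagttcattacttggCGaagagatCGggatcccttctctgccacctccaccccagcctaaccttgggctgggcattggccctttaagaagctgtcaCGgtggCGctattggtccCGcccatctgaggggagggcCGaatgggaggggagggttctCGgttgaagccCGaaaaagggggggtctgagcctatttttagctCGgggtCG
Mta1: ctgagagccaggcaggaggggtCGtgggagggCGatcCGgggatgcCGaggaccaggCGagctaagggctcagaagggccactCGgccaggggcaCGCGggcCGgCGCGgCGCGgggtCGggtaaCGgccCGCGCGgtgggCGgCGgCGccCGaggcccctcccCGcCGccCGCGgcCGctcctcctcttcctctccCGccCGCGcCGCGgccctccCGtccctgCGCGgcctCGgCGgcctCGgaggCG
Rnf2: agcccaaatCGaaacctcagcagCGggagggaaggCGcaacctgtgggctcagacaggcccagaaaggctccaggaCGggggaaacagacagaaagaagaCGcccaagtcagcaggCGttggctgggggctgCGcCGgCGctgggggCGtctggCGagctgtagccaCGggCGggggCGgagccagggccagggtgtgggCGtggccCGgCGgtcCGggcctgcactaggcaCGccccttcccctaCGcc
Bmi1: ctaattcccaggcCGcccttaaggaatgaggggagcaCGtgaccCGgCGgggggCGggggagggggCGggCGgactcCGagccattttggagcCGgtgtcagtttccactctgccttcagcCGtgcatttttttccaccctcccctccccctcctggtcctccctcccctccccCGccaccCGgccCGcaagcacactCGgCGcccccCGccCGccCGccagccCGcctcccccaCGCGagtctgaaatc
Hdac9: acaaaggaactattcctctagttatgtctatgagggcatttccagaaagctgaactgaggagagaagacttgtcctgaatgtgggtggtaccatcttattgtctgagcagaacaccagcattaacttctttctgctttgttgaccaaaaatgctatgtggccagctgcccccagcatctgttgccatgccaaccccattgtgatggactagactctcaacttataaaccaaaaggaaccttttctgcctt
The windows are chr4:133756770-133757019 (minus strand, Arid1a), chr11:102230173-102230422 (minus, Hdac5), chr12:113098028-113098277 (plus, Mta1), chr1:151500992-151501241 (minus, Rnf2), chr2:18676768-18677017 (plus, Bmi1) and chr12:34917096-34917345 (minus, Hdac9). They hold 18, 12, 39, 20, 21 and 0 CG dinucleotides, so CG-rich windows stand on both sides and only the Hdac9 window of these 6 has none. The median window GC content was 71.4% for the 8 higher genes with a window, 61.2% for the other 41 and 60.0% for all expressed genes. These medians and the motif shares below use all windows, and only 23 of the 49 member windows met no annotated exon. Among the higher genes the windows of Crebbp, Tet1, Tet3, Ep300 and Arid1b met exons, so the values partly describe transcribed sequence. The motif GGGCGG and the motif CCAAT were counted on both strands, as was the palindrome TGACGTCA, each regardless of overlap with the others. GGGCGG was found in the windows of 8 of 8 higher genes, 30 of the 41 others (73.2%) and 60.3% of expressed genes. CCAAT was found in 2 of 8, 17 of 41 and 36.9%, and TGACGTCA in none of the 49 and 2.81%.

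The DNA methylation genes were the group with the highest median, 0.47, and all 7 had more RNA in the KO library with a counting interval wholly above 1. All 7 were still above 0 with the GC trend removed, with a median of 0.37. As scaled, the 11 further DNA methylation genes taken up below had a median of only 0.07, with 7 above 0 and 4 below. The common direction therefore held for the 7 genes chosen here and not for the further list. Of the Tet enzymes, which oxidise 5-methylcytosine, Tet1 had 239 reads in WT and 734 in KO, 1.59-fold higher (interval 1.37 to 1.85). Tet3 had 2073 and 6241 reads and was 1.56-fold higher (1.48 to 1.64). Tet2 had 362 and 968 reads and was 1.38-fold higher (1.22 to 1.56). The Tet genes therefore all lay on the same side, with Tet3 carrying most of the family's reads. Of the methyltransferases, the de novo enzyme Dnmt3a had 1466 and 3956 reads, 1.40-fold higher (1.31 to 1.48). The other de novo enzyme, Dnmt3b, had 114 and 303 reads and a wider interval (1.37-fold, 1.10 to 1.72). The maintenance enzyme Dnmt1, which copies methylation after replication, had 2215 and 5332 reads, 1.24-fold higher (1.18 to 1.31). Its partner Uhrf1, which recognises half-methylated DNA, had 354 and 855 reads (1.25-fold, 1.10 to 1.42). The genes that write methylation and those that oxidise it were thus on the same side. Dnmt1 was nearer to 0 than the Tet genes, but Dnmt3a and Dnmt3b, with log2 ratios of 0.48 and 0.46, were close to Tet2 (0.47). Dnmt1 and Uhrf1 are also known as genes of cycling cells. The 16 cell cycle genes summed to 817 CPM in WT and 805 in KO, and single genes went both ways: Cdk1 was 1.61-fold higher (1.05 to 2.53), Rrm2 1.58-fold lower (1.34 to 1.85) and Ccnb1 1.55-fold lower (1.10 to 2.18), and the other 13 were under 1.5-fold, among them Mcm2 (1.46-fold higher), Mki67 (1.02-fold) and Pcna (1.29-fold lower).

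Among the acetyltransferases the paralogues Crebbp and Ep300, the large coactivators CBP and p300 that acetylate histone H3 at enhancers, had more RNA in the KO library, and the others differed little. Crebbp (chromosome 16, 4081328 to 4213997) had 1751 reads in WT and 6353 in KO. At 1.88-fold higher (1.78 to 1.98) it had the highest ratio of the 55 genes, and it was at 0.79 on the log2 scale with the GC trend removed. Ep300 had 3949 and 11548 reads and was 1.51-fold higher (1.46 to 1.57), with a log2 ratio of 0.60 as scaled and 0.50, under 1.5-fold, with the GC trend removed. Kat2b (PCAF) had 1272 and 2460 reads, which is no difference after scaling (log2 ratio 0.00, fold interval 0.934 to 1.07). Kat5 (Tip60) had 327 and 695 reads (1.10-fold, 0.962 to 1.26), an interval that includes no difference.

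The demethylases split within a paralogue pair as scaled, and the gap was narrower with the GC trend removed. Kdm6b (JMJD3; chromosome 11, 69398508 to 69413675), which removes the Polycomb mark H3K27me3, had 1836 and 6634 reads and was 1.87-fold higher in the KO library (1.77 to 1.97). Its log2 ratio was 0.90, and 0.50, under 1.5-fold, with the GC trend removed. Its paralogue Kdm6a (UTX) had 1600 and 3276 reads, 1.06-fold (0.997 to 1.12). The log2 ratio of Kdm6a was 0.08, and 0.18 with the GC trend removed. The GC contents of Kdm6b and Kdm6a are 59.6% and 42.5%. Kdm1a (LSD1), which demethylates histone H3 lysine residues with a flavin cofactor, had 1391 and 3015 reads, 1.12-fold (1.05 to 1.20). Exons of Kdm6b share 4.11% of their length with the antisense gene Kdm6bos, and the strand setting of the counting is not given.

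All 7 SWI/SNF genes had more RNA in the KO library, with a median of 0.31, and each interval was wholly above 1. Arid1a (chromosome 4, 133679008 to 133756769), the large DNA-binding subunit of the BAF form of the complex, had 9966 reads in WT and 33969 in KO, 1.76-fold higher (1.72 to 1.80). Its paralogue Arid1b had 1615 and 4691 reads and was 1.5-fold higher (1.42 to 1.59). The ATPase Smarca4 (BRG1) had 3229 and 7765 reads (1.24-fold, 1.19 to 1.30), and the subunit Smarcd1 1006 and 2475 (1.27-fold, 1.18 to 1.37). The alternative ATPase Smarca2 (BRM) had 1753 and 3830 reads, the core subunit Smarcc1 1492 and 3537, and the core subunit Smarcb1 1068 and 2326, with log2 ratios of 0.18, 0.29 and 0.17. The ARID subunits thus stood above the ATPases and core subunits. The group median was 0.09 with the GC trend removed, Arid1a and Arid1b were at 0.49 and 0.43, and Smarcb1 was below 0, at -0.05.

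The NuRD complex couples a chromodomain ATPase to deacetylases. As scaled, Chd3 stood above its paralogue Chd4 and Mta1 above Mta2, while Mbd2 and Mbd3 were close to each other. The ATPase Chd3 had 10132 and 29312 reads, 1.5-fold higher (1.46 to 1.53) but just under the call on the log2 scale (0.58). Its paralogue Chd4 had 11678 and 26704 reads, 1.18-fold higher (1.16 to 1.21). Per length they were the most abundant of the 55: Chd4 stood at 122 RPKM (CPM per kilobase of exon) in WT and 144 in KO, and Chd3 at 100.2 and 149.9. The scaffold subunit Mta1 had 1938 and 5656 reads (1.51-fold, 1.43 to 1.59), whereas its paralogue Mta2 had 4066 and 8239 (1.05-fold, 1.01 to 1.09). The methyl-CpG-binding gene Mbd2, with 2667 and 4943 reads, and its relative Mbd3, with 710 and 1335, had intervals that included no difference. With the GC trend removed Chd3 and Chd4 were at 0.31 and 0.13, and Mta1 and Mta2 at 0.36 and -0.01, so both gaps were narrower. Mbd2 was then at -0.26, and Mbd3, the most GC-rich of the 55, at -0.50.

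Of the 10 deacetylase genes 1 was higher (10.0%, near the 7.43% of all expressed genes). The class I enzymes, the catalytic partners of corepressor complexes, were all slightly below 0, from -0.15 to -0.07 on the log2 scale. Hdac1 had 3098 and 5721 reads (1.05-fold lower), Hdac2 1332 and 2363, Hdac3 757 and 1317, and Hdac8 135 and 239, with an interval for Hdac8 that included no difference. Hdac2 was on the other side of 0, at 0.03, with the GC trend removed. The class IIa enzymes, which shuttle between nucleus and cytoplasm and repress MEF2-driven transcription, went both ways. Hdac5 had 361 reads in WT and 1079 in KO, 1.55-fold higher (1.37 to 1.75), and Hdac7, the predominant class IIa gene here with 2674 and 6943 reads, was 1.34-fold higher (1.28 to 1.40). Hdac9 (chromosome 12, 34047580 to 34917095) had 103 and 134 reads, 1.49-fold lower (1.14 to 1.94). It was the lowest of the 55 in ratio and in level per length, at 0.586 RPKM in WT and 0.394 in KO. Hdac4 (372 and 795 reads), the cytoplasmic tubulin deacetylase Hdac6 (244 and 524) and the NAD-dependent deacetylase Sirt1 (704 and 1274) had intervals that included no difference. With the GC trend removed Hdac5 and Hdac7 were at 0.24 and 0.05, and Hdac9 at -0.58. Exons of Hdac4 share 22.4% of their length with Gm26720 on the opposite strand.

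Polycomb genes lay on both sides of 0, with a median of -0.07. In PRC2, which writes H3K27me3, no gene was far from 0: Ezh1 had 1174 and 2067 reads (1.10-fold lower, 1.02 to 1.18), its paralogue Ezh2, the main methyltransferase of dividing cells, 657 and 1213 (1.05-fold lower, 0.951 to 1.15), Eed 492 and 1020, and Suz12 2210 and 3813. PRC1, which ubiquitinates histone H2A, differed more. Bmi1 had 1330 and 1971 reads and was 1.30-fold lower (1.22 to 1.40), and the ubiquitin ligase Rnf2 (RING1B) had 1807 and 2834 and was 1.23-fold lower (1.16 to 1.31). The paralogous ligase Ring1 had 295 and 780 reads and was 1.37-fold higher (1.19 to 1.57). Of the chromodomain subunits, Cbx2 had 151 and 455 reads (1.56-fold higher, 1.29 to 1.89) and Cbx7 748 and 1459, with no difference (1.01-fold, 0.923 to 1.10). Rnf2 and Bmi1 have GC contents of 39.5% and 40.2% and Ring1 and Cbx2 of 60.7% and 57.6%, and with the GC trend removed the 4 log2 ratios were -0.09, -0.18, 0.08 and 0.36, while Cbx7 was at -0.30.

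None of the 9 heterochromatin genes was called. In so small a group this is not far from the shares among all expressed genes, 7.43% higher and 5.51% lower. The HP1 genes, whose proteins bind H3K9-methylated histones, had ratios below 1: Cbx1 (HP1 beta) had 398 and 585 reads (1.32-fold lower, 1.16 to 1.5), Cbx3 (HP1 gamma) 1637 and 2525 (1.25-fold lower, 1.18 to 1.33) and Cbx5 (HP1 alpha) 572 and 950 (1.16-fold lower, 1.05 to 1.29). All 3 were under 1.5-fold. With the GC trend removed they stood at -0.33, -0.18 and -0.13. The annotation holds 8 pseudogenes named after Cbx3, and reads that align to several places were not counted, so its count is less certain. The H3K9 methyltransferase gene Setdb1 had 834 and 2129 reads and was 1.32-fold higher (1.22 to 1.43), at 0.40 with and without the GC trend. Ehmt2 (G9a) had 1723 and 4250 reads (1.28-fold higher, 1.21 to 1.35), a ratio that was at -0.08 with the trend removed. Its partner Ehmt1 (GLP), with 936 and 2039 reads, had a log2 ratio of 0.17, and Suv39h1, with 506 and 1055, one of 0.11 and an interval that included no difference. Exons of Suv39h1 share 14.55% of their length with the antisense gene Gm14820. The histone H3.3 chaperone gene Daxx, with 1279 and 2640 reads, and Atrx, its ATPase partner, with 4090 and 8542, had log2 ratios of 0.09 and 0.11.

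Levels per length spread widely among the 55 genes. The median was 13.2 RPKM in WT and 16.1 in KO. After Chd4 and Chd3, Mta2 (82.9 and 86.9), Hdac1 (75.1 and 71.7), Arid1a (72.5 and 128) and Mbd2 (69.3 and 66.4) were the most abundant in WT, while in KO Mta1, at 78.7, stood above Hdac1 and Mbd2. These genes encode subunits of NuRD or SWI/SNF complexes, and each stood above every Polycomb gene, of which Suz12 was the highest (37.3 and 33.3). At the low end, next to Hdac9, stood Tet1 (1.29 and 2.05), Tet2 (1.79 and 2.48) and Dnmt3b (1.86 and 2.56) in WT. In KO Hdac8 (2.13) and Hdac4 (2.17) were below Tet2 and Dnmt3b.

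**Figure D3:**
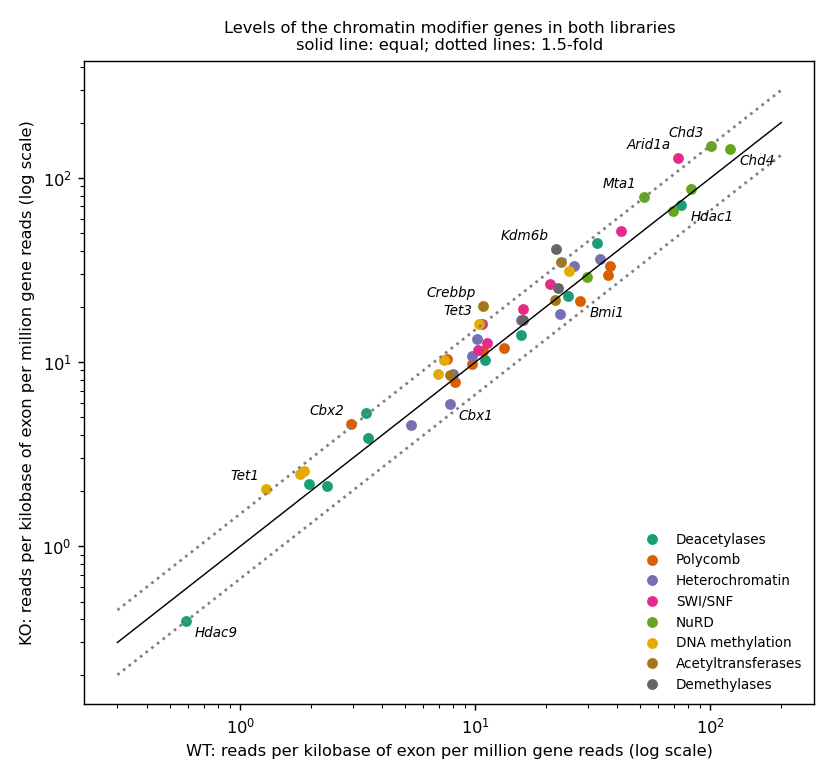
The level in reads per kilobase of exon, scaled to library size (RPKM), is plotted for each of the 55 genes in the WT library (horizontal, log scale) against the KO library (vertical, log scale), coloured by role, with a solid line of equality and dotted lines at 1.5-fold. Arid1a, Crebbp and Kdm6b lie above the upper dotted line, and Hdac9 is the lowest point, close to the lower one.

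Read shares within a pair of paralogues do not depend on the scaling between libraries, though they keep any effect of GC content. Kdm6b took 53.4% of the reads of Kdm6a and Kdm6b in WT (exact binomial interval 51.75 to 55.1) and 66.9% in KO (66.0 to 67.9), the widest gap of the pairs. Mta1 took 32.3% of Mta1 and Mta2 in WT (31.1 to 33.5) and 40.7% in KO (39.9 to 41.5). Ring1 took 14.0% of Ring1 and Rnf2 in WT (12.6 to 15.6) and 21.6% in KO (20.25 to 23.0). The shares of Chd3 went from 46.5% in WT to 52.3% in KO, and those of Crebbp from 30.7% to 35.5%. Arid1a took 86.05% of Arid1a and Arid1b in WT (85.4 to 86.7) and 87.9% in KO (87.5 to 88.2), a small step with intervals that did not overlap. The intervals overlapped in part for Smarca4 of Smarca2 and Smarca4 (64.8% and 66.97%) and for Ehmt2 of Ehmt1 and Ehmt2 (64.8% and 67.6%). Each share lay within the other library's interval in 4 pairs: Hdac1 took 69.9% of Hdac1 and Hdac2 in WT and 70.8% in KO, Ezh2 35.9% and 37.0% of Ezh1 and Ezh2, Mbd2 79.0% and 78.7% of Mbd2 and Mbd3, and Dnmt3a 92.8% and 92.9% of Dnmt3a and Dnmt3b. In the Tet family Tet3 took 77.5% and 78.6% of reads and Tet2 13.5% (12.3 to 14.9) and 12.2% (11.5 to 12.9), with intervals that overlapped.

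**Figure D4:**
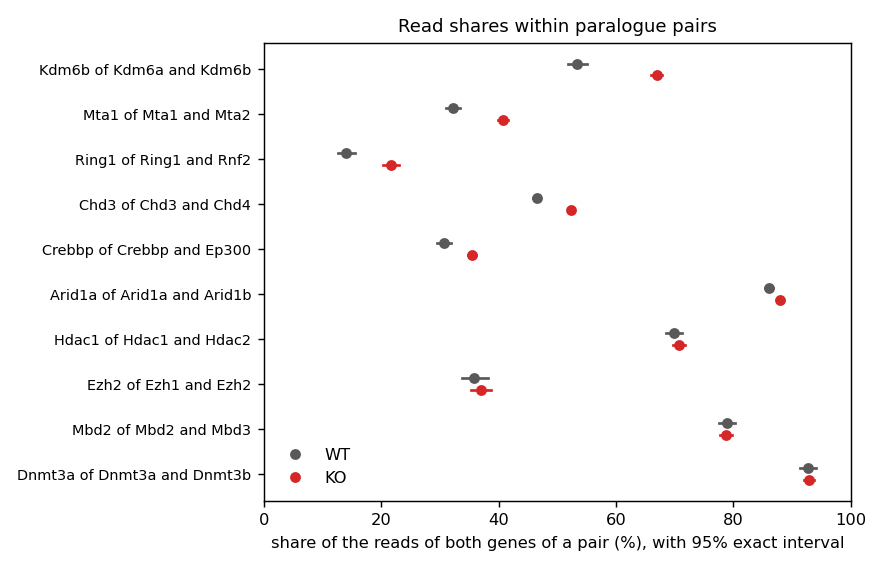
Each row shows the percentage of a pair's reads taken by the gene named first, in the WT library (grey) and the KO library (red), with exact 95% binomial intervals for counting error. The intervals of Kdm6b, Mta1, Ring1, Chd3, Crebbp and Arid1a are apart, and those of Hdac1, Ezh2, Mbd2 and Dnmt3a overlap.

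Further chromatin genes outside the 55 were read from lists made by role. Of 142 listed genes with counts, 137 passed the floor. Of these 17 (12.4%) were higher in KO by at least 1.5-fold, against 7.43% of expressed genes, and 1 (0.73%) was lower, against 5.51%. Their median log2 ratio was 0.17. After removal of the GC trend 1 was higher, Kmt2e, and 2 were lower, Cbx6 and Pcgf2. Histone methyltransferase genes were prominent among those higher as scaled, with 7 of 21. With the GC trend removed only Kmt2e of the 21 was higher (4.76%, near the 4.30% of expressed genes). Kmt2d, an H3K4 methyltransferase of enhancers, had 5147 and 18477 reads (1.86-fold higher, 1.80 to 1.92), and the related Kmt2b had a ratio of 1.56-fold. The H3K4 methyltransferase Setd1b was 1.81-fold and the H3K79 methyltransferase Dot1l 1.78-fold higher. Of the further deacetylases Sirt6, Hdac10 and Sirt2 had log2 ratios of 0.51, 0.43 and 0.42.

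The remaining groups outside the 55 differed less or in part. Their counts stand beside 7.43% higher and 5.51% lower among all expressed genes. With the GC trend removed none of the genes called higher in these groups stayed at 1.5-fold. Of 15 heterochromatin genes 4 were higher (26.7%). Wiz, a partner of G9a and GLP, was 1.82-fold higher (1.67 to 1.99) and the H3.3 deposition factor Cabin1 1.56-fold. The Setdb1 partner Atf7ip was 1.52-fold and Kmt5c, listed as Suv420h2, 1.54-fold higher. Of 11 DNA methylation genes 1 was higher (9.09%, near the share of all expressed genes), Mbd6 at 1.94-fold (1.83 to 2.06). Cxxc1 and Mbd5 had log2 ratios of 0.42 and 0.36 and Zbtb33 (Kaiso) one of -0.48. The median of these 11 was 0.07, with 7 above 0 and 4 below. Intervals lay wholly above 1 for 3 of them and wholly below 1 for 3 (Uhrf2, Zbtb33 and Ogt). Of 13 demethylase genes 2 were higher (15.4%), Phf2 (1.58-fold) and Kdm4b (1.53-fold), and Kdm5c and Kdm2a were at 0.39 and 0.32. Of the acetyltransferase and bromodomain genes Kat6b, Brd3 and Brd1 were at 0.44, 0.41 and 0.40. None of 13 SWI/SNF genes was called, with Smarcc2 at 0.45, Bcl7b at 0.40, Arid2 at 0.27 and Pbrm1 at 0.26. Their median was 0.09, with 9 above 0 and 4 below. Intervals lay wholly above 1 for 5 of the 13 and wholly below 1 for 3 (Smarce1, Brd7 and Actl6a). None of 14 further NuRD and remodeller genes was called either, with Ep400 at 0.42, Mta3 at 0.34, Gatad2a at 0.32 and Gatad2b at 0.28. The median of these 14 was 0.10, with 9 above 0 and 5 below. Intervals lay wholly above 1 for 7 and wholly below 1 for 4 (Rbbp4, Rbbp7, Chd9 and Smarca5). Of 22 Polycomb genes none was higher and 1 was lower (4.55%, near the share of all expressed genes). This was Pcgf2, with 33 and 15 reads (4.25-fold lower), named after its values were seen. Among better-read Polycomb genes Cbx8, Phf1 and Phc1 were at 0.57, 0.39 and 0.38 and Cbx6 at -0.50.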

How the data were processed

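The authors deposited raw read counts per gene symbol for both libraries. Per the labels' protocols, mRNA was taken on beads from Trizol extracts, and a transposase-based kit gave the libraries. TopHat2 2.0.3, HTSeq and mm10 were used, per the submitters' processing notes. The annotation and strand setting used are not given.

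Category entries of the counter were left out (23.4% of entries in each library). Counts were scaled with TMM factors (edgeR 4.0.16, R 4.3.3) and given a pseudocount of 1. Genes with a mean of at least 20 reads were kept and called at 1.5-fold. No test was run, since each group has 1 library. Folds and exact conditional binomial (Clopper-Pearson) 95% intervals use raw counts without the pseudocount, and cover counting error only, since reads are not independent molecules. The calculation was tested on simulated data. GC content, exon lengths and positions came from GENCODE M21, which matched 10851 of the 10899 expressed genes and all 55 members. The trend on GC content and length was a robust spline fit (statsmodels 0.14.6). Alternatives were DESeq2 1.42.0 size factors, total counts, other floors, pseudocounts and folds, and removal of that trend.

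Full values were given to every member past 1.5-fold, or with an absolute log2 ratio of 0.3 or more and an interval without no difference, and to the first of each role group. Of each further list, up to 4 genes with the largest absolute ratio and a mean of at least 100 reads were named. The members and lists were chosen with earlier results of these data known. The targeted gene and some listed genes are not reported here.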

Additional observations from a re-analysis of the deposited data

How the results depend on the processing

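No paired analysis was possible because each group has 1 library. Scaling to total counts gave 4 members higher and 1 lower (10 and 0 in the main analysis), and 7 and 2 of the other chromatin genes (17 and 1). With the GC and length trend removed 2 members were higher, 1 and 2 other chromatin genes were higher and lower, and 467 of all genes were higher (810 in the main analysis). The group medians then moved from 0.11 to -0.081 for heterochromatin, 0.31 to 0.091 for SWI/SNF and 0.47 to 0.37 for DNA methylation genes. At 2-fold 0 members, 1 other chromatin gene and 173 of all genes were higher, and 227 of all genes lower (600 in the main analysis). Without a floor 3 other chromatin genes were lower, and over all genes 2617 were higher and 1867 lower. With a floor of 100 reads 0 other chromatin genes were lower, and over all genes 509 were higher and 309 lower. DESeq2 size factors took Arid1b under 1.5-fold and kept the other 9 calls, and the pseudocounts of 5 and 0.5 and the interval condition kept all 10. No called member changed sign under any alternative run. Hdac9, Dnmt3b, Hdac8, Cbx2 and Hdac6 have the fewest reads and the widest intervals.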

Other observations

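Ratios of the 55 chromatin genes also went with exon length, which the trend over all genes does not show. The Spearman correlation of ratio and exon length was 0.38 across the 55 genes and -0.05 across all expressed genes, and 0.42 across the 55 with the GC and length trend removed. The points share the same pair of libraries. The 19 longest genes (7930 to 21757 bases of exon) had a median log2 ratio of 0.47, the middle 18 one of 0.16 and the 18 shortest (1987 to 4839 bases) one of 0.01. With the trend removed the medians were 0.24, 0.06 and -0.01. Of the 10 genes at least 1.5-fold higher, 7 were among the 19 longest, namely Crebbp, Arid1a, Tet1, Tet3, Ep300, Arid1b and Hdac5. Atrx, the longest of the 55, had a log2 ratio of 0.11, and Hdac9, also among the longest, one of -0.57. This pattern was seen in the data and was not tested.

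Together the 55 genes accounted for 0.865% (WT) and 1.04% (KO) of gene reads. NuRD genes held 0.267% and 0.320%, SWI/SNF genes 0.173% and 0.246%, and the Polycomb genes 0.0760% and 0.0656%.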
